A study of Homo sapiens with 32 samples.

Results

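Polysome-bound mRNA (P) of MDA-MB-231 cells kept in hypoxia with the mTOR inhibitor PP242 (HPP) was compared with that of the same cells in normoxia (N). MDA-MB-231 is an established line of triple-negative breast cancer. The comparison used 4 of the 32 libraries of the series, 2 HPP and 2 N, and the 19815 protein-coding genes among the 60554 genes of the count table. The HPP cells spent 24 hours at 0.5% O2 and were exposed to 2.5 µM PP242 for 3 hours. PP242 was dissolved in DMSO, and cells not given it received DMSO alone in equal amount. The N cells had neither hypoxia nor PP242. Cells at 0.5% O2 for 24 hours without PP242 (H) and cells in normoxia with 2.5 µM PP242 for 3 hours (NPP) were used for reference, with 2 libraries each, as was the total mRNA (T) of the HPP and N cells. All groups came from unmodified cells of 1 line, lysed in cycloheximide, and polysomal mRNA was taken from a sucrose gradient.

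mTOR complex 1 couples nutrients and growth factors to protein synthesis, in large part by keeping the 4E-BP proteins from blocking the cap-binding factor eIF4E. mRNAs with a 5′ terminal oligopyrimidine (TOP) tract, which begin with a C and a run of pyrimidines and encode the ribosomal proteins and many translation factors, are the class most dependent on this signal, and PP242 blocks the kinase in both mTOR complexes. Low oxygen acts on transcription by stabilising the HIF factors, which bind DNA at a short core motif. These factors induce genes of glycolysis, pH control and collagen modification. The study describes that prolonged low oxygen also inhibits translation, by repressing mTOR signalling.

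The start sites of mRNAs that fell in P under HPP are shown because they carry the TOP tract. Each line gives the first 20 bases of the mRNA 5′ to 3′ from the RefSeq start on GRCh38.p14, with the pyrimidine run in capitals.
RPS18 (chr6:33272075-33272094, + strand): CTCTCTTCCacaggaggcct
RPL13A (chr19:49487608-49487627, + strand): CTTTTCCaagcggctgccga
RPL39 (chrX:119791611-119791630, - strand): CCCTCCTCTTCCTTTCTCCg
RPL27A (chr11:8682792-8682811, + strand): CTTTTTCgtctgggctgcca
RPS19 (chr19:41860255-41860274, + strand): CCCTTTCCCCTggctggcag
TPT1 (chr13:45341164-45341183, - strand): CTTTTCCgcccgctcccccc
EEF2 (chr19:3985444-3985463, - strand): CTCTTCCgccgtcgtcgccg
A start of C followed by at least 4 C or T was present at 28 of the 38 large-subunit and 19 of the 25 small-subunit ribosomal protein genes that had a RefSeq promoter entry (73.7% and 76%). It was present at 7.31% of the 10305 matched among 13501 tested gene symbols, counting a gene if any of its listed starts had it.

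The libraries held the markers of the line. The mesenchymal markers VIM, CD44, ZEB1, AXL, MSN and CAV1 were all present, with VIM at 3772 and 3945 CPM (counts scaled to a common library size, with TMM factors) in N P and 4002 and 4055 in HPP P. CDH1, ESR1, PGR, KRT5, KRT14 and TP63 were at most at 0.585 CPM in these 4 libraries, and the T cell marker CD3E was at 0. Other epithelial markers were present at low levels. EPCAM was at 19.1 and 15.3 CPM in N P and 11.6 and 11.5 in HPP P, GATA3 at 12.5 and 9.98 against 6.64 and 6.34, and CLDN4 at 12.2 and 13.1 against 29.1 and 22.2. The basal keratins of MCF10A-type epithelium were near 0, with KRT5 at most at 0.0715 CPM and KRT6A at 0. The immune and endothelial markers PTPRC, CD3E, CD68 and PECAM1 summed to 122 and 106 CPM in N P and 83.7 and 82.7 in HPP P, and most of this was CD68, a lysosomal protein. The part of other cells in the results was not tested further. The library totals were 24478793 and 32479393 counts in N P and 32040328 and 39536845 in HPP P.

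All 79 ribosomal protein mRNAs fell on polysomes under HPP, and 26 of 34 hypoxia targets rose. Of the 13510 genes that passed the filter on low counts, 1312 rose (9.71%) and 1315 fell (9.73%) in P at an adjusted p under 0.05 by edgeR's quasi-likelihood test. Among them 487 rose and 266 fell by at least 2-fold. The median log2FC over all tested genes was 0.01. The number called depended on single libraries. It was 868 (494 higher, 374 lower) without HPP P replicate 1, 1254 (637 and 617) without HPP P replicate 2, 1455 (638 and 817) without N P replicate 1 and 1690 (709 and 981) without N P replicate 2, against 2627 with all of them. Without the filter on low counts 2018 genes rose and 1035 fell. The split also moved with the tool and the scaling, to 1312 higher and 1809 lower by DESeq2, 1179 and 1515 with RLE factors, and 1271 and 1729 with a length offset chosen after seeing the data. In T, 853 genes rose (6.31%) and 933 fell (6.91%), a total of 1786. The direction of this split was not stable. There were 372 higher and 500 lower without N T replicate 1, 508 and 272 without HPP T replicate 1, 290 and 253 without N T replicate 2, 413 and 169 without HPP T replicate 2, and 1040 and 790 with only the libraries compared in the fit. Counts are relative to each library, so a change in the total amount of polysomal mRNA is not seen in them, and fewer cells of a kind and less RNA per cell cannot be told apart.

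**Figure D1:**
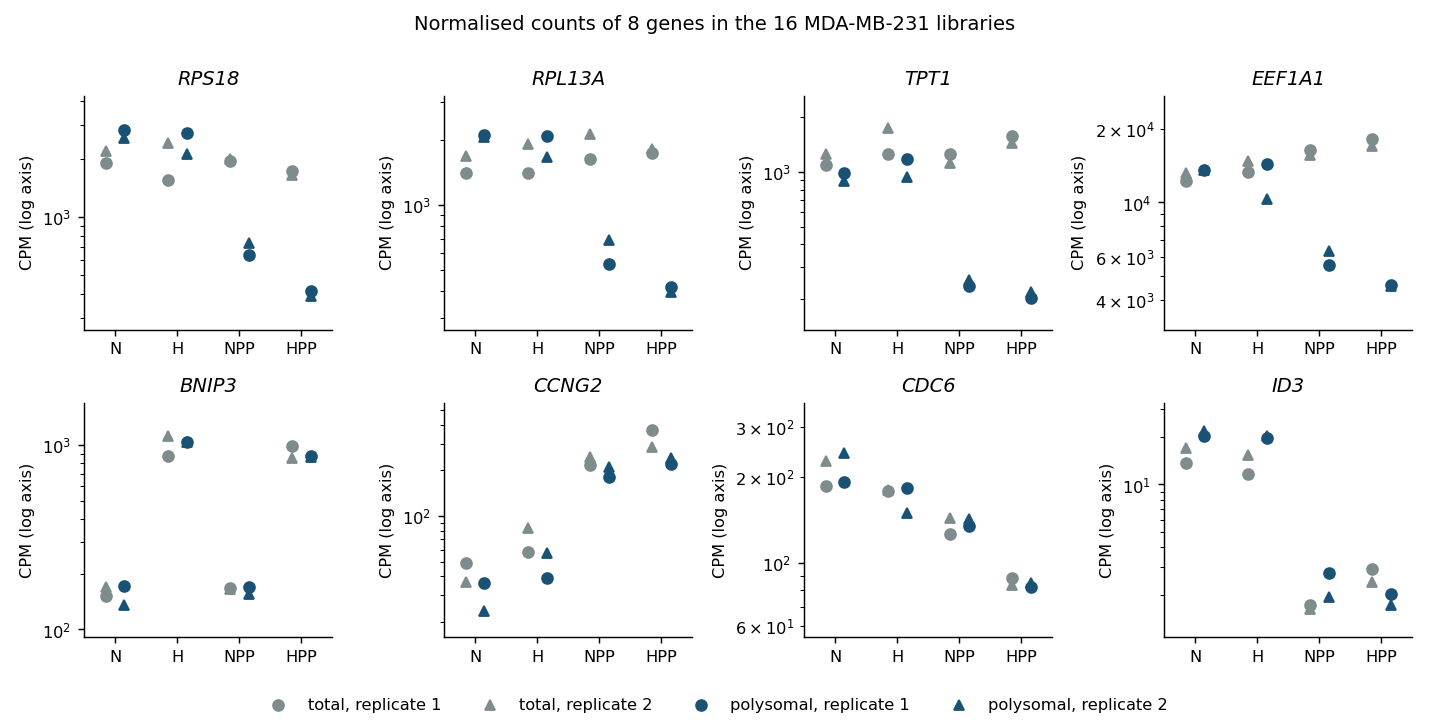
CPM (log axis) of 8 genes in the 16 MDA-MB-231 libraries, by treatment; grey symbols are total and blue symbols polysomal mRNA, and circles and triangles are the replicates. RPS18 in P drops from 2828 and 2548 CPM in N to 416 and 393 in HPP while T stays between 1659 and 2185 in those treatments, and BNIP3 rises alike in both fractions.

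Ribosomal protein mRNAs fell together in P and not in T. All 47 mRNAs of the large subunit and all 32 of the small subunit fell in P, with median log2FC of −1.90 and −2.05, where 9.73% of all tested genes fell. Their summed share of protein-coding counts in P was 9.73 ± 0.743% in N and 2.90% in HPP, where the 2 libraries held 2.83% and 2.97% (N given as mean ± SD, n = 2). In T it was 8.14 ± 0.668% and 7.29 ± 0.0934%. None of the 79 was called in T by edgeR or by DESeq2, and 1 had an unadjusted p under 0.05.

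RPS18, a protein of the small subunit, was at 2828 and 2548 CPM in N P and at 416 and 393 in HPP P. The 2 HPP values were far below both N values, a 6.64-fold fall (log2FC −2.73, SE 0.20, adjusted p 1.41e-06 by edgeR). RPL12, of the large subunit, stood at 743 and 552 CPM in N P and 103 and 102 in HPP P (log2FC −2.66, SE 0.20). RPL39 went from 987 and 980 CPM to 166 and 167 (log2FC −2.57, SE 0.22). In none of these did the N and HPP libraries overlap, which the rule for naming them required. RPL27A, RPS19, RPL37, RPL21, RPL13A, RPL31, RPS3A, RPL37A, RPS27 and RPS15A had log2FC between −2.52 and −2.27 and were also among the 15 most reduced called mRNAs with an average log2 CPM of at least 2 and groups apart, of which 14 encoded ribosomal proteins. The other was ID3, an inhibitor of bHLH transcription factors described with the cell cycle genes.

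The smallest fall of a ribosomal protein mRNA was that of RPL41, which encodes the shortest ribosomal protein, at 268 and 277 CPM in N P and 118 and 117 in HPP P (log2FC −1.21, SE 0.30, adjusted p 0.0119). RPL15, RPL4, RPL38 and FAU, which encodes RPS30 as a fusion with a ubiquitin-like protein, were also among the least reduced, at −1.25, −1.31, −1.43 and −1.47. When any single P library was left out, 46 or 47 of the large-subunit and all 32 of the small-subunit mRNAs were called. Many ribosomal protein genes have processed pseudogenes, so reads may have been shared with these copies, and their levels carry that uncertainty.

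The same pattern held in other mRNAs with known TOP tracts. Of 17 such mRNAs outside the ribosomal proteins, 15 fell in P (median log2FC −1.11, with 9.73% of all tested genes lower), while the median in T was 0.10. TPT1, the translationally controlled tumour protein, had 986 and 891 CPM in N P and 205 and 219 in HPP P. Its HPP libraries were both below its N libraries (log2FC −2.15, SE 0.18), while its T values were 1098 and 1257 in N and 1568 and 1449 in HPP. EEF1A1, the elongation factor that brings aminoacyl-tRNA to the ribosome, dropped from 13556 and 13550 CPM to 4595 and 4542 in P (log2FC −1.57, SE 0.15) and rose in T (log2FC 0.47, SE 0.15, adjusted p 0.0498). Subunits of the same elongation complex, EEF1G, EEF1B2 and EEF1D, fell by 1.64, 1.59 and 1.49 on the log2 scale. EEF2, the translocation factor, fell by 0.79 (adjusted p 0.0486), and the poly(A)-binding proteins PABPC1 and PABPC4 by 0.90 and 0.93.

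The 2 TOP mRNAs that were not called in P had risen in T. VIM, the intermediate filament vimentin, had a log2FC of 0.06 in P (SE 0.15) and 0.75 in T (SE 0.15, adjusted p 0.00574). EIF4B, a helper of the eIF4A helicase, had 0.05 in P and 0.82 in T. For both, the polysomal log2FC was below the total one, by 0.68 and 0.77. Without N T replicate 1, 1 TOP mRNA of the list rose in T, against 3 with all libraries.

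**Figure D2:**
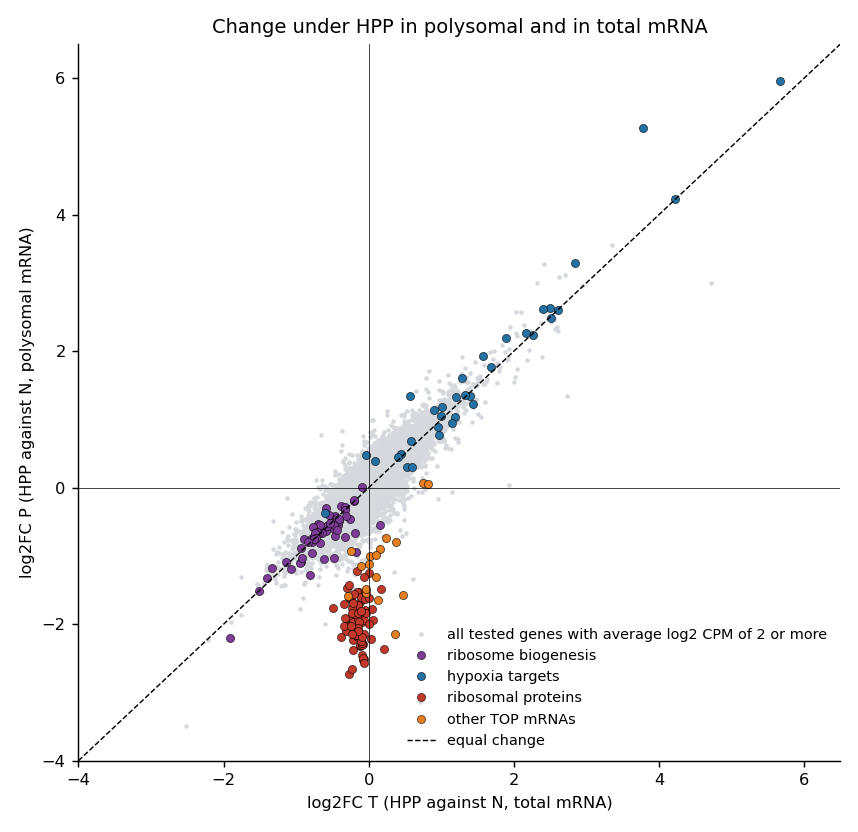
log2FC of each gene in total mRNA (x) and in polysomal mRNA (y) for HPP against N, with the dashed line at equal change. Ribosomal proteins (red) and other TOP mRNAs (orange) lie far below the line at log2FC T near 0, while hypoxia targets (blue) and ribosome biogenesis genes (purple) lie along it.

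Translational efficiency (Te) was taken as log2FC P minus log2FC T and its test was that of the fraction by treatment term. It fell for 94 genes, 0.696% of those tested, and rose for 0 by edgeR and for 0 by DESeq2. At an unadjusted p under 0.05, 162 genes had a higher and 292 a lower Te. The absence of higher calls depended on the rule. A z-score of Te beyond 1.5 together with an adjusted p under 0.10 in P gave 47 higher and 141 lower. These cut-offs are those of the study's methods, which print Te as log2FC P over log2FC T, not the difference used here. The z-score here was taken over all tested genes, while the study calculated Te only for genes significant in polysomes. The rule does not test Te itself. The Te test without the filter on low counts gave 32 and 125. Of the 94, 73 were ribosomal proteins and 8 were other TOP mRNAs. By group, 42 of 47 large-subunit, 31 of 32 small-subunit and 8 of 17 other TOP mRNAs were called, with median Te of −1.74, −1.84 and −1.12 against 0.06 for all tested genes. With the fraction pairs of each culture as a block, 2 genes had a higher and 73 a lower Te. The total was 58 without N T replicate 1, of which 50 were lower and 8 higher, with 21, 19 and 5 in these groups, and from 73 to 105 when any other library was left out. RPL13A had the lowest Te of the ribosomal proteins (−2.57, SE 0.27, adjusted p 0.000415), followed by TPT1 at −2.51 and RPL39 at −2.50.

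The 13 genes outside these lists were of mixed function. Of the 11 with a RefSeq entry, 5 began with the same C and pyrimidine run, where 7.31% of all matched tested genes did. SLC25A6 and SLC25A5, the mitochondrial ADP/ATP carriers, had Te of −1.86 and −1.06. SLC25A6 fell from 241 and 252 CPM to 71.5 and 70.3 in P and was 187 and 213 against 193 and 224 in T. CRTAP, a partner of the collagen prolyl hydroxylase, had 204 and 210 CPM in N P and 88.4 and 88.1 in HPP P, with a Te of −1.57 (SE 0.17). AHCY, which clears S-adenosylhomocysteine, NME2, a nucleoside diphosphate kinase, and YBX1, an mRNA-binding cold shock protein, had Te of −1.38, −1.77 and −1.55. PFDN5, RPL22L1, ATP5G2 and GLTSCR2 had Te between −1.73 and −1.18. The call of ATP5G2, which was near the threshold (adjusted p 0.0482), was lost when any library but N P replicate 2 or HPP T replicate 1 was left out.

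The remaining calls were of other kinds. GAPDH, the glycolytic dehydrogenase, was at 5289 and 4758 CPM in N P and 3227 and 2940 in HPP P, against 3307 and 3618 in N T and 4811 and 4753 in HPP T (Te −1.17, SE 0.21, adjusted p 0.00968). It was the one glycolytic mRNA that fell in P, a call lost without HPP P replicate 2, and its Te call was lost without that library or N T replicate 1. ZNF581, a zinc finger gene, had a log2FC of −0.06 in P (22.5 and 18.2 CPM against 21.4 and 17.6) and rose in T from 17.1 and 15.1 to 37.3 and 33.8. NDUFC2-KCTD14, a readthrough of 2 neighbouring genes, was listed at 0 in both N T libraries and at 0.698 and 0.658 CPM in HPP T, and at 2.66 and 2.71 against 1.61 and 2.12 in P. How reads were divided between it and NDUFC2 was not tested.

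Transcript length was set beside Te. Ribosomal protein mRNAs were short, with a median length of 681.5 bases. Outside the ribosomal protein and other TOP lists, 1714 genes were no longer than the upper quartile of the ribosomal proteins. They had a median log2FC P of −0.06 and a median Te of 0.01. Of these 1714, 5 were called in Te, where 0.696% of all tested genes were. In P, 200 of them fell and 156 rose, beside 9.73% and 9.71% of all tested genes. The genes outside the ribosomal protein and other TOP lists were also put in 5 equal bins from the shortest to the longest. Their median log2FC P was −0.07, −0.07, 0.03, 0.07 and 0.12. The median Te in the same bins was −0.01, −0.01, 0.05, 0.09 and 0.14.

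**Figure D3:**
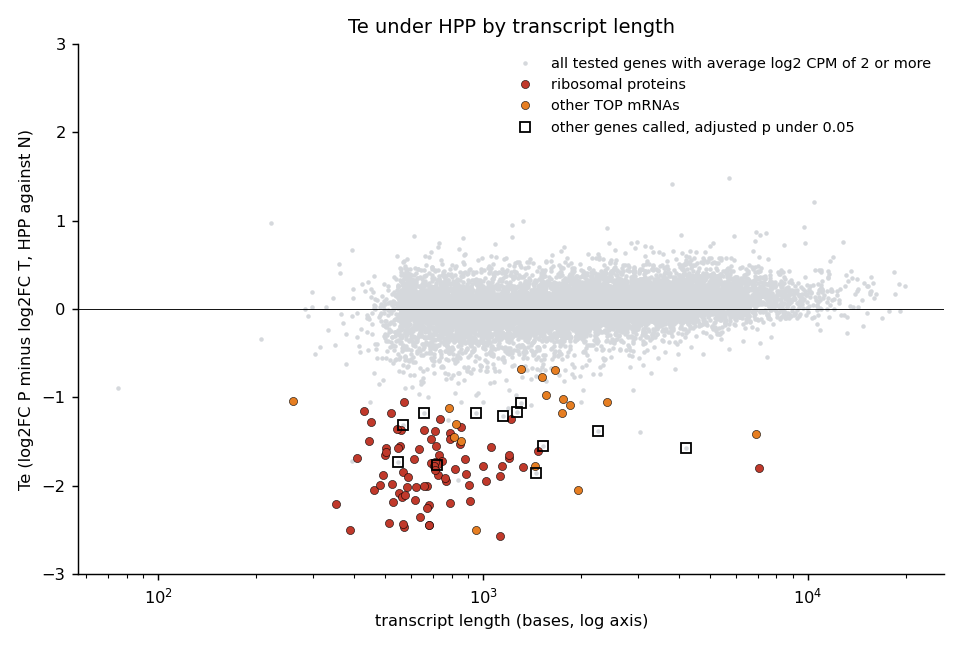
Te (log2FC P minus log2FC T, HPP against N) against transcript length on a log axis; red points are ribosomal proteins, orange points other TOP mRNAs, open squares other called genes and grey points all tested genes with an average log2 CPM of at least 2. Short grey genes centre near 0 where the ribosomal proteins lie between −2.57 and −1.05.

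Other parts of the translation apparatus were called in part. Of 35 initiation factors and regulators that are not in the TOP list, 13 fell in P (median log2FC −0.32), with a median of −0.23 in T. EIF3K, EIF3M and EIF3G, subunits of the eIF3 scaffold, fell by 1.08, 0.87 and 0.86. EIF4A1, the cap-complex helicase, fell by 0.67, and EIF4E by 0.46. EIF4EBP1, the translation repressor held in check by mTOR, was at 55.3 and 46.9 CPM in N P and 24.1 and 35.5 in HPP P (log2FC −0.78, SE 0.20, adjusted p 0.0151), and EIF4EBP2 fell by 0.96. The scaffolds EIF4G1 and EIF4G3 had log2FC of −0.16 and 0.06. The count of 13 became 6, 2, 7 and 6 without N P replicate 1, HPP P replicate 1, N P replicate 2 and HPP P replicate 2. Of 20 tRNA synthetases 5 fell (median −0.16), where 9.73% of all genes fell, led by FARSB, KARS and VARS at −0.88, −0.51 and −0.50. That count was 1, 1 and 3 without HPP P replicate 1, HPP P replicate 2 and N P replicate 2.

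Of 59 genes of ribosome biogenesis, 45 fell in P and 33 in T, with medians of −0.65 and −0.62 where 9.73% and 6.91% of all genes fell. RRS1, needed for assembly of the 60S subunit, was at 85.3 and 84.2 CPM in N P and 17.8 and 19.2 in HPP P (log2FC −2.19, SE 0.19, adjusted p 4.52e-06) and fell by 1.92 in T. URB2 and LTV1, further assembly factors, fell by 1.51 and 1.33. NPM1, the nucleolar chaperone, fell by 0.94 in P and had a log2FC of −0.17 in T. The P count was 19 without HPP P replicate 1 and 24 without HPP P replicate 2. The T count was 15, 13 and 14 without HPP T replicate 1, N T replicate 2 and HPP T replicate 2. The group median in P stayed between −0.65 and −0.62 whichever P library was left out.

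Among mitochondrial ribosomal proteins and nuclear genes of the respiratory chain fewer than 1 in 2 were called, all of them lower. Of 75 mitochondrial ribosomal proteins 37 fell in P (median −0.55), where 9.73% of all tested genes fell, and the median in T was −0.35. MRPL12, a large-subunit protein, was at 155 and 129 CPM in N P and 57.6 and 79.0 in HPP P (log2FC −1.05), and MRPL52 and MRPL36 fell by 1.08 and 1.07. Of 76 nuclear genes of the respiratory chain, 34 fell in P (median −0.54), with a median of −0.24 in T. ATP5G2, which encodes the membrane ring of ATP synthase, fell most, from 348 and 308 to 116 and 123 CPM (log2FC −1.46, SE 0.18). COX5A, of cytochrome oxidase, and UQCR10, of complex III, fell by 1.17 and 1.03, while ATP5B, the catalytic subunit, had a log2FC of −0.03. These counts were unstable. The mitochondrial ribosome had 6, 14 and 20 calls and the respiratory chain 3, 9 and 19 without HPP P replicate 1, N P replicate 1 and HPP P replicate 2.

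None of the 13 mitochondrially encoded mRNAs was called in P by edgeR or DESeq2, and none had an unadjusted p under 0.05. Their share of counts in P was 0.545% and 0.993% in the 2 N libraries and 0.601% and 1.06% in the HPP libraries, against 5.19 ± 0.433% in N T and 6.02 ± 0.0954% in HPP T (SD, n = 2 each). MT-CO1, a subunit of cytochrome oxidase, was at 1510 and 2632 CPM in N P and 1328 and 1898 in HPP P. Its replicates differed more than its groups. These mRNAs are translated inside mitochondria and are not bound to cytosolic polysomes.

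**Figure D4:**
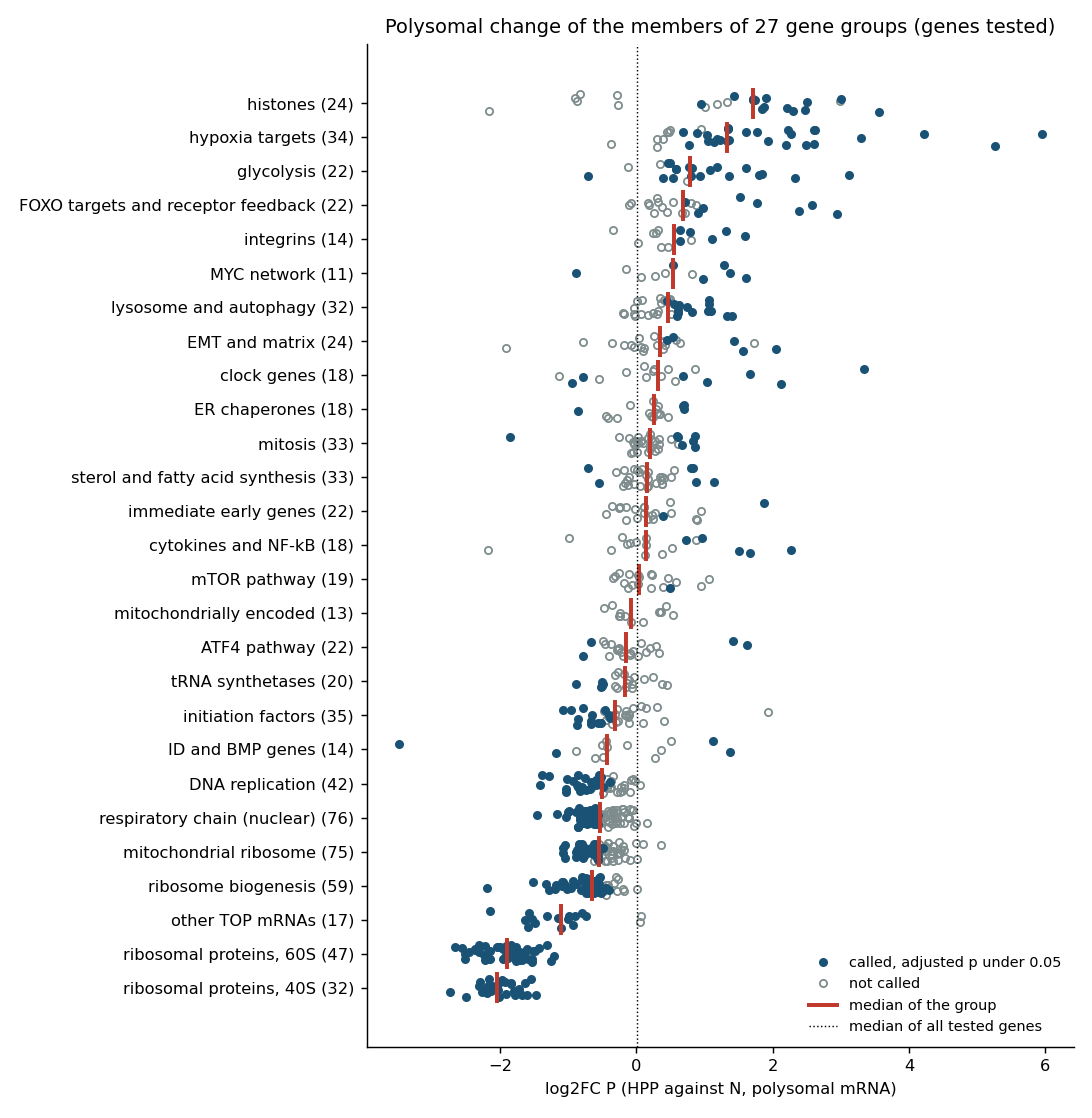
log2FC in polysomal mRNA (HPP against N) of the tested members of each gene group, with the number tested in parentheses; filled points passed an adjusted p of 0.05, open points did not, red bars are group medians and the dotted line is the median of all tested genes. The ribosomal proteins form the lowest groups with every member filled, at medians of −2.05 and −1.90, and histones and hypoxia targets the highest at 1.72 and 1.34.

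Hypoxia targets rose in P as they did in T. Of 34 genes known to respond to HIF, 26 rose in P and 26 in T, where the background was 9.71% and 6.31%, with medians of 1.34 and 1.24. The median Te was 0.10, with no member called in Te by edgeR or DESeq2 and 1 with an unadjusted p under 0.05. CA9, the membrane carbonic anhydrase that controls pH in hypoxic tumours, was at 0.653 and 0.258 CPM in N P and 34.6 and 19.8 in HPP P. This 62.1-fold rise was the largest among called genes with an average log2 CPM of at least 2 (log2FC 5.96, SE 0.64, adjusted p 3.08e-05). PPFIA4, a liprin, went from 0.218 and 0.291 to 10.8 and 9.39 CPM (log2FC 5.27, SE 0.39).

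NDRG1, a stress-responsive gene of differentiation, stood at 71.0 and 70.1 CPM in N P and 1414 and 1226 in HPP P. No HPP library was near the N range, and the log2FC of 4.23 (SE 0.21, adjusted p 6.22e-08) equalled that in T (4.22). BNIP3, a mitophagy receptor, went from 172 and 136 to 872 and 858 CPM (log2FC 2.49), and P4HA1, a collagen prolyl hydroxylase, from 42.5 and 33.8 to 231 and 233 CPM (log2FC 2.60). ANKRD37, TMEM45A, SPAG4 and LOX, a collagen cross-linking enzyme, rose by 3.30, 2.63, 2.61 and 2.27. VEGFA, the angiogenic growth factor, was not called (174 and 181 CPM in N P, 228 and 236 in HPP P, adjusted p 0.075), and ADM, HILPDA, RAB20, ZNF395, CA12 and DDIT4 were also among those not called. DDIT4, an mTORC1 inhibitor, varied too much between N libraries to be read, at 134 and 35.9 CPM.

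The core HIF motif is shown in the promoters of 3 of these genes, in capitals as ACGTG or its reverse complement CACGT, on the gene's strand of GRCh38.p14.
CA9 (chr9:35673902-35673922, + strand): ttccaatgCACGTacagcccg
P4HA1 (chr10:73096940-73096960, - strand): atcgagctCACGTagcgaggg
ANKRD37 (chr4:185396690-185396710, + strand): gtttgtgtACGTGcggccgtg
ACGTG or GCGTG on either strand was found between 250 bases before and 50 after the start in 23 of 26 matched hypoxia targets (88.5%) and in 69.5% of all matched tested genes, so the letters alone are common.

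Most glycolysis genes rose too. Of 22 genes 18 rose in P (median 0.79) and 19 in T (median 0.93), against 9.71% and 6.31% of all tested genes. ALDOC, an aldolase, went from 2.57 and 1.07 to 19.4 and 11.6 CPM (log2FC 3.12, SE 0.43). PFKFB4, which makes the activator of phosphofructokinase, and PDK1, which shuts off pyruvate dehydrogenase, rose by 2.32 and 1.84. PGK1 was at 1071 and 961 CPM in N P and 3250 and 2933 in HPP P. LDHA, lactate dehydrogenase, rose from 2701 and 2122 to 5125 and 5038 CPM (log2FC 1.08) and by 1.50 in T. PFKM, TPI1 and the glucose transporter SLC2A1 were not called.

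Of 42 DNA replication genes 22 fell in P and 20 were not called, and 21 fell in T, with medians of −0.51 and −0.53, where 9.73% and 6.91% of all genes fell. The P count was 11 without HPP P replicate 1, and the T count was 10, 9 and 10 without HPP T replicate 1, N T replicate 2 and HPP T replicate 2. MCM10, ORC1 and CDC6, which license and fire replication origins, fell by 1.41, 1.29 and 1.39. CDC6 was at 193 and 243 CPM in N P and 81.8 and 84.4 in HPP P. TYMS, thymidylate synthase, had a log2FC of −0.37 and was not called. Among 33 mitotic genes 6 rose and 1 fell (median 0.19), where 9.71% of all tested genes rose and 9.73% fell. The one that fell was CDC25A, the phosphatase that drives entry into S phase and mitosis, from 50.5 and 66.5 to 15.9 and 16.3 CPM (log2FC −1.86, SE 0.15, adjusted p 3.61e-06). CENPF and CENPE, kinetochore proteins, rose by 0.86 and 0.83, and ESPL1, the separase, by 0.86. Without N P replicate 1, 2 genes of the list rose, and ESPL1 was not among them.

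ID3 had the lowest log2FC in P of any called gene with an average log2 CPM of at least 2. It was at 20.3 and 21.8 CPM in N P and at 2.02 and 1.74 in HPP P, an 11.2-fold fall (log2FC −3.49, SE 0.22, adjusted p 4.87e-07), and fell by 2.51 in T. Among 14 genes of the ID and BMP group 2 fell and 2 rose (median −0.43), beside 9.73% and 9.71% of all tested genes. ID1 also fell, with its N libraries apart (37.9 and 14.4 CPM against 11.5 and 11.6), and its call was lost without N P replicate 1 or either HPP library. ID2 and NOG, a BMP antagonist, rose by 1.38 and 1.13. The most abundant of the list, BMP4, was at 415 and 255 CPM against 292 and 185 (log2FC −0.49, adjusted p 0.209), and was called with a replicate block (adjusted p 0.0298). The ID2 call was lost without any one of the 4 libraries. In the MYC network, 5 of 11 rose and 1 fell (median 0.54). MXI1, MNT, MXD3 and MXD4, partners of MAX that oppose MYC, rose by 1.61, 1.38, 1.29 and 0.98. MYC rose from 200 and 194 to 276 and 298 CPM (log2FC 0.54, adjusted p 0.0117), a call lost without N P replicate 2 or HPP P replicate 2. MLX fell by 0.89.

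Outside the lists, 4 mRNAs were among the 15 with the largest rise at an average log2 CPM of at least 2 and with groups apart. DNAH11, an axonemal dynein heavy chain, went from 1.74 and 1.81 CPM in N P to 19.3 and 15.2 in HPP P (log2FC 3.27, SE 0.24, adjusted p 1.41e-06). TCAF2, a TRP channel regulator with a similar neighbouring copy, and MYH15, a myosin heavy chain, rose by 3.09 and 2.58. TNFSF15, a cytokine of the TNF family, went from 12.5 and 6.55 to 61.8 and 50.1 CPM (log2FC 2.57, SE 0.69, adjusted p 0.0193). Both HPP libraries were above both N libraries, but its call was lost when any one of the 4 was left out.

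Genes under FOXO control or in feedback to growth factor receptors rose in part. FOXO factors enter the nucleus when AKT is inactive. Of 22 such genes 8 rose in P and 7 in T, with medians of 0.69 and 0.61, against 9.71% and 6.31% of all tested genes. CCNG2, a cyclin of quiescent cells, was at 36.3 and 23.8 CPM in N P and 222 and 241 in HPP P (log2FC 2.95, SE 0.26, adjusted p 5.59e-06). PIK3IP1, an inhibitor of PI3K, went from 0.392 and 0.646 to 2.78 and 3.55 CPM (log2FC 2.57). KLHL24, an adaptor of a ubiquitin ligase, SESN3, a sestrin, and TXNIP, which limits glucose uptake, rose by 2.38, 1.77 and 1.52. IRS2, INSR and IGF1R, which carry the insulin and IGF signal, had log2FC of 0.81, 0.31 and 0.54 and were not called.

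Lysosome and autophagy genes, many of them targets of the mTORC1-regulated factor TFEB, rose in 14 of 32 cases in P (median 0.46, with 0.45 in T), against 9.71% of all tested genes. GABARAPL1, which coats autophagosomes, was at 27.6 and 20.0 CPM in N P and 65.4 and 60.6 in HPP P (log2FC 1.41). NPC1, the cholesterol exporter of lysosomes, went from 65.4 and 59.1 to 160 and 153 CPM (log2FC 1.33). FLCN, FNIP1 and RRAGC, which signal amino acid supply to mTORC1, rose by 1.10, 1.06 and 1.05, and SQSTM1, the autophagy receptor p62, by 1.07. The count was 7 without HPP P replicate 1 and 9 without N P replicate 2. Among 19 genes of the mTOR pathway itself (median 0.05) 1 rose, where 9.71% of all tested genes did, and the shares were not compared by a test. It was TSC1, by 0.50 (adjusted p 0.0343 by edgeR), a call lost without any one of the 4 libraries. In settings other than leaving out a library, from 0 to 5 members of this list rose.

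Most members of the stress and lipid lists were not called. In the ATF4 pathway 2 of 22 genes rose and 2 fell (median −0.15), close to the 9.71% and 9.73% of all tested genes. PPP1R15A, the phosphatase subunit that reverses eIF2α phosphorylation, was at 201 and 371 CPM in N P and 941 and 833 in HPP P (log2FC 1.63, adjusted p 0.0047), and ATF3 rose by 1.42. MTHFD2, of mitochondrial folate metabolism, and SESN2 fell by 0.78 and 0.67, and 1 member of the list fell without HPP P replicate 1 or N P replicate 2. ATF4 was at 371 and 387 CPM against 436 and 493 and was not called. Of 18 endoplasmic reticulum chaperone genes 3 rose, among them HERPUD1 by 0.70 and DNAJB9 by 0.69, and 1 fell (median 0.26), beside the same background. No member rose without HPP P replicate 1 or N P replicate 2, and 1 did without HPP P replicate 2. The fall, of SDF2L1, was not called without N P replicate 1 or HPP P replicate 1, and 2 members fell without N P replicate 2. Of 33 sterol and fatty acid genes 4 rose and 2 fell (median 0.15), beside 9.71% and 9.73% of all genes. INSIG1, which retains the sterol sensor in the endoplasmic reticulum, rose by 0.83. ELOVL6, a fatty acid elongase, fell by 0.70. The rises numbered 1 without N P replicate 1 and 2 without HPP P replicate 1, and the falls 1, 1 and 0 without N P replicate 1, HPP P replicate 1 and HPP P replicate 2.

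Histone genes had the highest median of the groups. Of 24 tested of 33 listed, 14 rose in P and 15 in T, with medians of 1.72 and 1.74, where 9.71% and 6.31% of all tested genes rose. HIST1H2AC was at 18.8 and 19.2 CPM in N P and 200 and 246 in HPP P (log2FC 3.56, SE 0.26, adjusted p 1.41e-06). HIST2H4A, HIST2H2BE, HIST1H2BD and HIST1H2BC rose by 3.00, 2.50, 2.47 and 2.29. HIST1H4C, HIST1H3B and HIST1H1E had log2FC of −0.27, −0.87 and −0.89 and were not called. The list made up 0.0153 ± 0.000697% of protein-coding counts in N P and 0.0765 ± 0.0127% in HPP P (SD, n = 2 each). Most histone mRNAs lack a poly(A) tail, so poly(A)-selected libraries hold a small part of them, and near-identical copies, HIST2H4A and HIST2H4B among them, may share reads.

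The integrin list and the EMT and matrix list had some members called, all higher. Of 14 tested integrins 6 rose (median 0.55), where 9.71% of all tested genes did. ITGB4, the laminin-binding β4 chain, went from 17.3 and 11.7 to 54.2 and 33.1 CPM (log2FC 1.59, adjusted p 0.0175). ITGA2, ITGA5, ITGAV and ITGA6 rose by 1.11, 0.79, 0.64 and 0.64. These calls were fragile, and 1, 0, 2 and 3 integrins rose without N P replicate 1, HPP P replicate 1, N P replicate 2 and HPP P replicate 2. In the EMT and matrix list 5 of 24 rose (median 0.35), and 3 rose without N P replicate 1 or without either HPP library. FN1, fibronectin, was at 77.0 and 80.9 CPM in N P and 260 and 206 in HPP P (log2FC 1.56, SE 0.25), and MMP1, the interstitial collagenase, rose by 1.43. SNAI1, SNAI2, ZEB1 and ZEB2 were not called.

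Among 18 cytokine and NF-κB genes 5 rose (median 0.14), beside 9.71% of all tested genes, and 1 did without HPP P replicate 1 and 3 without N P replicate 2, where 1 fell. IL24 went from 26.7 and 12.9 to 69.6 and 120 CPM (log2FC 2.27), and CSF2 and CXCL8 rose by 1.67 and 1.51, both lost without HPP P replicate 1 or N P replicate 2. The most abundant, IL11, could not be read, at 538 and 62.0 CPM in the N P libraries. Of 18 clock genes 5 rose and 2 fell (median 0.32), the falls being near the 9.73% of all genes. RORA, a nuclear receptor of the clock, rose from 0.261 and 0.387 to 3.63 and 3.15 CPM (log2FC 3.34, SE 0.33). The repressors CIART and BHLHE41 rose by 2.12 and 1.67, while PER2 and PER3 fell by 0.94 and 0.78. Without HPP P replicate 1 or N P replicate 2, 3 clock genes rose, and the 2 falls became 1, 1, 0 and 0 without N P replicate 1, HPP P replicate 1, N P replicate 2 and HPP P replicate 2. Of 22 immediate early genes 2 rose, DUSP1 and ETV5 (median 0.14), no larger a share than the 9.71% of all tested genes, and none did without HPP P replicate 1, N P replicate 2 or HPP P replicate 2, and 1 without N P replicate 1.

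A set of 8 genes was picked in the study from these samples for protein blots. MXI1, RORA, FLCN and FNIP1, described above, were also taken up there for other assays, and none of these genes is independent evidence. RPL11, YBX1 and EIF3G fell in P, by 1.88, 1.74 and 0.86. RPL11 and YBX1 were called in Te, where 1 of the 8 was called without N T replicate 1, and EIF3G had a Te of −0.59 (adjusted p 0.966). ITGB3, the β3 integrin chain, was at 1.18 and 1.97 CPM in N P and 3.74 and 4.19 in HPP P. Both HPP values lay above both N values (log2FC 1.32, SE 0.33, adjusted p 0.0124), a call lost without N P replicate 1 or either HPP library, with a log2FC of 0.62 in T (SE 0.33, adjusted p 0.231) and a Te of 0.70 (SE 0.46). With the few counts of an overlapping readthrough gene added, a choice made after seeing the data, the log2FC in P was 1.18.

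CCDC103, a dynein assembly factor, went from 0.523 and 0.517 to 1.43 and 1.91 CPM in P and was 0.646 and 0.625 in N T against 0.531 and 0.461 in HPP T. Its Te of 2.04 (SE 0.48, adjusted p 0.102) was the highest of the 8. MMP3, stromelysin, rose by 2.05 in P (0.392 and 0.42 CPM against 2.11 and 1.31). TTC30B, a ciliary transport protein, had a log2FC of 0.81 with an adjusted p of 0.192. It had few counts, and its groups did not overlap.

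Single treatments were set beside HPP to see which groups each moved. All share the 2 N libraries as control, so agreement between them is not independent. In P, H raised 241 genes (1.78%) and lowered 69 (0.511%), and NPP raised 103 (0.762%) and lowered 161 (1.19%). The ribosomal protein medians were −0.11 and −0.12 under H, −1.30 and −1.37 under NPP and −1.90 and −2.05 under HPP, for large and small subunit, with 45 of 47 and 31 of 32 called down under NPP. Hypoxia targets had medians of 1.41 under H, 0.15 under NPP and 1.34 under HPP. The FOXO and receptor list had 0.02, 0.55 and 0.69, and ribosome biogenesis −0.30, −0.26 and −0.65.

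**Figure D5:**
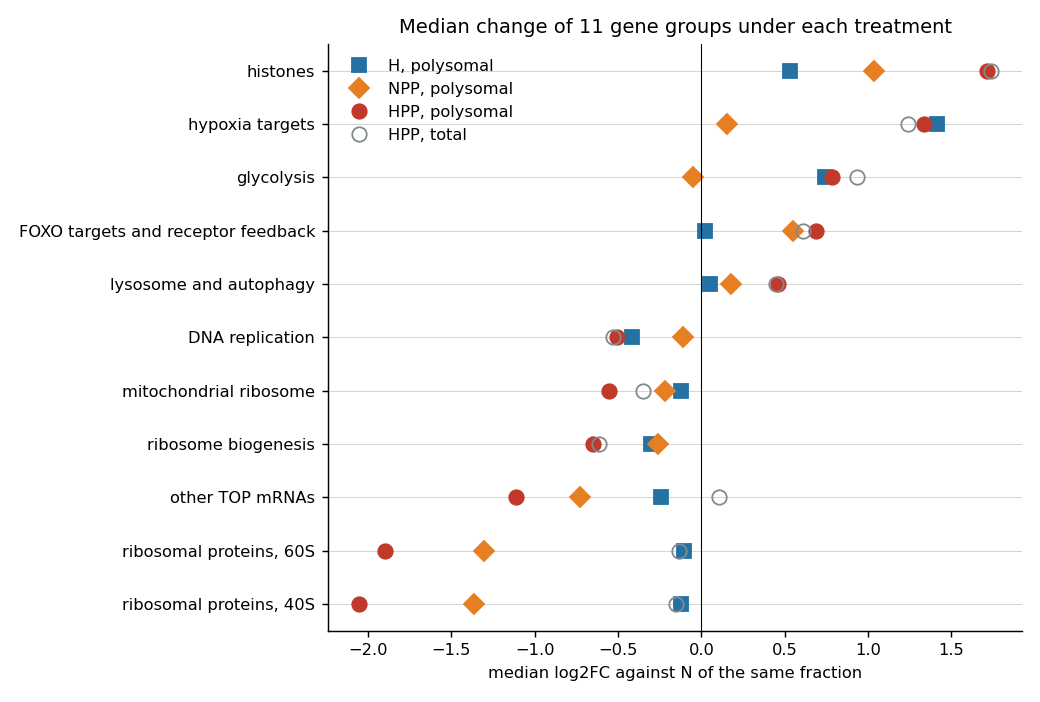
Median log2FC of gene groups against N of the same fraction, in polysomal mRNA under H (blue squares), NPP (orange diamonds) and HPP (red circles) and in total mRNA under HPP (open circles). The ribosomal protein medians lie below 0 under NPP and HPP in P, those of hypoxia targets and glycolysis above 0 under H and HPP, and the histone medians are 0.53, 1.03 and 1.72, with 2, 4 and 14 of 24 called higher.

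HPP was then compared with H for what PP242 added to hypoxia. HPP against H raised 656 genes (4.86%) and lowered 895 (6.62%). All 47 and all 32 ribosomal protein mRNAs were lower, with a median of −1.79 for the large subunit, and 13 of the 17 other TOP mRNAs were. RPS29 went from 419 and 408 CPM in H P to 67.8 and 62.1 in HPP P. ID3 was at 19.6 and 20.1 CPM in H P and had the lowest log2FC of this contrast among called genes with an average log2 CPM of at least 2 (−3.40, SE 0.22). KLHL24, CREBRF, a regulator of the CREB3 stress factor, HIST1H2AC and CCNG2 were highest among the same genes, at 2.60, 2.38, 2.34 and 2.27. CREBRF was at 7.01 and 7.09 CPM in H P and 37.9 and 35.4 in HPP P. The total of 1551 calls was 415 without HPP P replicate 1, 599 without HPP P replicate 2 and 684 without H P replicate 2.

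The comparison with NPP, which shares the 2 HPP libraries with that against H, gave what hypoxia added to PP242. HPP against NPP raised 320 genes (2.37%) and lowered 160 (1.18%). Of the hypoxia targets 26 of 34 were higher (median 1.17), among them CA9 and PPFIA4 at 5.19 and 4.14, and NDRG1, which went from 115 and 119 CPM to 1414 and 1226. Of the ribosomal proteins, 1 of 47 and 6 of 32 were lower, with medians of −0.60 and −0.64. RPS18 was at 637 and 732 CPM in NPP P and 416 and 393 in HPP P (log2FC −0.76, SE 0.19, adjusted p 0.0407). LHX4, a LIM homeobox gene, was lowest among called genes with an average log2 CPM of at least 2, at −1.78, from 11.3 and 7.26 to 3.22 and 2.19 CPM, followed by GOLGA8B, which has near-identical copies, ZBTB40 and LAMA3, a laminin chain, at −1.60, −1.58 and −1.51. The 480 calls became 66 (61 higher, 5 lower) without NPP P replicate 2, 87 (72 and 15) without NPP P replicate 1, 77 (70 and 7) without HPP P replicate 1 and 94 (85 and 9) without HPP P replicate 2. DESeq2 called 485 higher and 447 lower.

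Departure from additivity, HPP minus H minus NPP plus N on the log2 scale, was called for 1 gene, SPANXA1, a cancer-testis gene (5.42, SE 0.60, adjusted p 0.00365). In NPP P it was at 0.085 and 0.423 CPM while its near-identical copy SPANXA2 was at 26.2 and 38.9, and in N P the copies were at 17.9 and 19.0 against 17.9 and 18.8. With the counts of both summed, a choice made after seeing the data, the departure was −0.04 (SE 0.44) and 0 genes were called. Over all genes 76 had a positive and 487 a negative departure at an unadjusted p under 0.05 by edgeR, and DESeq2 called 16, all negative. The ribosomal proteins had median departures of −0.45 and −0.53, with none called by edgeR.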

How the data were processed

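Expected counts per gene were deposited by the authors as whole numbers, unnormalised, in 1 column per library. They mapped paired reads of poly(A)-selected libraries with STAR to GRCh38 and GENCODE and counted with RSEM, while the GEO labels name GRCh37 as the build. The library kit does not mark strand, so reads of overlapping antisense genes cannot be told apart. RSEM divides reads among similar genes, which may affect ribosomal proteins, histones and SPANX genes. The authors' TMM scaling and edgeR tests are not in these files.

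Each column was matched to its sample by barcode, with 0 left over. Counts of the 16 MDA-MB-231 libraries, with totals from 18340916 to 39536845, were fitted together in 8 groups of 2 in R 4.3.3 with edgeR 4.0.16 (filterByExpr, TMM, quasi-likelihood F test, Benjamini-Hochberg adjustment over 13510 genes, threshold 0.05). CPM were computed with TMM factors. The fit left 8 residual degrees of freedom and a biological coefficient of variation of 0.150. Replicates are labelled biological, and p-values measure the spread between these libraries. An exact permutation of 2 against 2 libraries cannot go below a two-sided p of 0.333, so none is given. The code was tested on simulated data. DESeq2 1.42.0 and the other alternatives are in the closing section.

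Named genes were the 15 highest and lowest log2FC P with an average log2 CPM of at least 2 and groups apart, the 8 lowest Te, the 4 highest and lowest in each further contrast, the 3 largest called changes and the member with most counts of each list, and 8 candidates of the study. Other members were named after their values were seen. The 28 lists and their 823 genes were chosen with earlier results of these data known. Transcript lengths came from GENCODE on GRCh38 and promoters from RefSeq. A few genes that these rules name are not reported here.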

Additional observations from a re-analysis of the deposited data

Results flagged for a closer look

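The effect of HPP differed between fractions for 94 genes, all lower in polysomal than in total mRNA by the interaction test of edgeR, and 93 of them were also called by DESeq2. The departure from additivity of SPANXA1 (5.42 on the log2 scale) differed between treatments in the same test. Its copy SPANXA2 held 26.2 and 38.9 CPM in NPP P where SPANXA1 held 0.085 and 0.423, and the sum of both showed no call.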

How the results depend on the processing

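Main counts were 2627 (HPP in P), 1786 (HPP in T), 94 (Te), 1551 (HPP against H), 480 (HPP against NPP) and 1 (departure). The following settings moved them by over 1.5 times, for causes that were not tested. By DESeq2 there were 145 for Te, 932 against NPP and 16 for the departure. Without a filter beyond 1 read these were 157 (32 higher, 125 lower), 1088 and 51. Only the libraries compared gave 966 against NPP. An adjusted p under 0.10 gave 2776 in T, 2367 against H and 923 against NPP. An absolute log2FC of at least 1 gave 753 in P, 485 in T, 429 against H and 192 against NPP. The z-score rule for Te used the cut-offs of the study's methods, but the difference of log2FC and z-scores over all tested genes. It gave 188 (47 higher, 141 lower). Summing the SPANXA copies gave 0 for the departure. With a replicate block the counts were 3412 in P, 2482 in T, 100 for Te, 2224 against H, 961 against NPP and 2 for the departure, and every P and T call was kept. Deviations of same-numbered libraries correlated between −0.19 and 0.35 over 28 pairs of groups, with 0.00 for N P and HPP P and 0.14 for NPP P and HPP P. With 2 numbers, and not every pair above 0.1, they were not taken to pair samples across treatments. Leaving out single libraries gave 868 to 1690 in P, 543 to 872 in T, 58 to 105 for Te, 415 to 1109 against H, 66 to 94 against NPP and 1 to 2 for the departure. RLE factors, thinning, all gene classes, the culture block (2 higher and 73 lower in Te) and a length offset chosen after seeing the data (3000 in P, 105 for Te) stayed within 1.5 times. No named gene with a call reversed, but some calls depended on settings other than leaving out a library. The calls of ID1, DUSP1, DNAJB9, ETV5, TSC1, KARS and VARS were each lost in some of these besides the log2FC limit. ID1 was lost with only the libraries compared, with all gene classes and with the length offset. DUSP1 was lost with DESeq2, RLE factors and all gene classes. Among calls gained were TYMS by DESeq2, TTC30B without the filter on low counts and BMP4 with a replicate block. With 2 libraries a group the spread rests on few samples, and genes under about 1 CPM on few reads.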
